A study of Homo sapiens with 22 samples.

Results

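OLR1 and TMEM52B are neighbouring protein-coding genes in the short arm of human chromosome 12. Their RNA was described across established glioblastoma cell lines, which are cultured lines derived from the most aggressive glial brain tumour. The pair was chosen by its measured levels, since earlier results of these data had shown both genes high in the lines T98G and LN-18. The levels below are therefore a description with no test of that pattern. The genes are 2 of the 2221 genes listed for 8 lines, and both passed the filter on low counts.

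OLR1 encodes LOX-1, a C-type lectin receptor on the cell surface that binds and takes up oxidised low-density lipoprotein. It is known from endothelial cells, macrophages and smooth muscle of the artery wall, where its signalling is linked to NF-kB, adhesion molecules and chemokines. The gene lies in the natural killer gene complex, a cluster of C-type lectin receptor genes that are mostly used by immune cells. TMEM52B encodes a small membrane protein of little-known function, and its RNA is prominent in kidney.

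Poly(A) RNA of 11 untreated lines was sequenced in 2 libraries per line. T98G was grown in EMEM and LN-18 in DMEM. Of the lines they were set against, KALS-1 and SNU-1105 were grown in RPMI medium, U-87MG and U-138MG in EMEM, and LN-229 and KNS-42 in DMEM. The medium of all 8 lines held 10% fetal bovine serum, so no group was serum-free. Each line stands for 1 tumour. The labels do not state whether its libraries were separate cultures. The p-values reflect only how far the 2 libraries of a line varied, as a spread per gene shared by all 8 lines. That variation may be technical. Neither gene had a row in the other table, of 5383 genes, so their levels in A-172, AM-38 and SNU-466 were not analysed here.

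A level is given in CPM (counts-per-million), the reads of a gene scaled to a common library total, and a line is summarised by the mean ± SD of its 2 libraries. Library totals in the 8 lines ranged between about 17120000 and 21010000 reads, and 3 reads, the most that a count of 0 allows, equalled 0.143 to 0.175 CPM. Between 5.81% and 10.2% of a library's reads fell on listed genes. The sources used here do not say how these genes were chosen, so all counts are of listed genes. Such floors and the 95% intervals below cover counting error only. Of the 9 glial markers examined, SOX2, a neural stem cell factor, was the listed gene, at 0.0530 and 0 CPM in the T98G libraries and 0 and 0.204 CPM in the LN-18 libraries. It was also low in U-87MG, at 0.195 and 0.0499 CPM, and U-138MG, at 0.454 and 0.200 CPM, and ranged between 2.14 and 818 CPM in the libraries of the other 4 lines. SOX2 thus gave no support to a glial identity of T98G or LN-18, nor of those 2 lines. The other glial markers had no row for the 8 lines, so that identity was not judged.

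The 2 genes meet on opposite strands. In GENCODE 29 on GRCh38, OLR1 (ENSG00000173391) lies on the minus strand of chromosome 12 at 10158301 to 10172138, and TMEM52B (ENSG00000165685) on the plus strand at 10170542 to 10191801. The gene spans share 1597 bases, from 10170542 to 10172138, which hold the outermost annotated start of OLR1. Some of the 11 annotated OLR1 transcripts start outside these bases, between 10160561 and 10170387. Of 6 annotated TMEM52B transcripts, 3 start inside the OLR1 span, at 10170542, 10170630 and 10170729. The other 3 start beyond it, at 10179013, 10179303 and 10186397. The annotated exons of the genes share 0 bases. Within the span of the neighbour lay 137 exon bases of OLR1, or 4.48% of its exon length, and 310 exon bases of TMEM52B, or 8.89%. The libraries kept strand information, per the labels. The sources used here do not give the strand setting of the counting, so reads from unspliced RNA in the shared stretch could have been counted for either gene.

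OLR1 RNA was high in T98G and LN-18 and near or at 0 elsewhere. It stood at 55.3 and 13.7 CPM (1044 and 235 reads) in the T98G libraries, against 43.3 and 42.7 CPM (828 and 840 reads) in the LN-18 libraries. The LN-18 libraries lay close together, and both fell between the T98G libraries. KALS-1 was next, with 0.992 and 1.94 CPM (17 and 38 reads). SNU-1105 had 0 and 1 read, and U-87MG, U-138MG, LN-229 and KNS-42 had 0 reads in all 8 of their libraries. In mean level LN-18 came first at 43.0 ± 0.361 CPM, followed by T98G at 34.5 ± 29.4 CPM and KALS-1 at 1.47 ± 0.670 CPM (SD, n = 2 each). The first 2 positions overlapped, whereas the lowest T98G library was 7.08 times the highest KALS-1 library. The mean of T98G was 23.6 times, and that of LN-18 29.3 times, the mean of KALS-1. In bulk RNA, fewer expressing cells and less RNA per cell cannot be told apart.

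TMEM52B followed the same division of lines, with T98G on top. Its level was 258 and 111 CPM (4872 and 1894 reads) in the T98G libraries and 58.9 and 60.2 CPM (1128 and 1183 reads) in the LN-18 libraries. Each T98G library exceeded each LN-18 library, by 1.84 to 4.38 times. The KALS-1 libraries held 0.759 and 1.02 CPM (13 and 20 reads). U-87MG had 1 and 6 reads, of which the second exceeded the floor of 3 reads. LN-229 had 1 read in each library, KNS-42 and SNU-1105 had 0 and 1 read, and U-138MG had 0 reads in both. The means were 184 ± 104 CPM in T98G, 59.6 ± 0.898 CPM in LN-18, 0.890 ± 0.185 CPM in KALS-1 and 0.174 ± 0.177 CPM in U-87MG (SD, n = 2 each). The libraries of T98G, LN-18 and KALS-1 overlapped no other line, whereas those of U-87MG overlapped LN-229, KNS-42 and SNU-1105. T98G averaged 207 times and LN-18 66.9 times the KALS-1 mean.

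**Figure D1:**
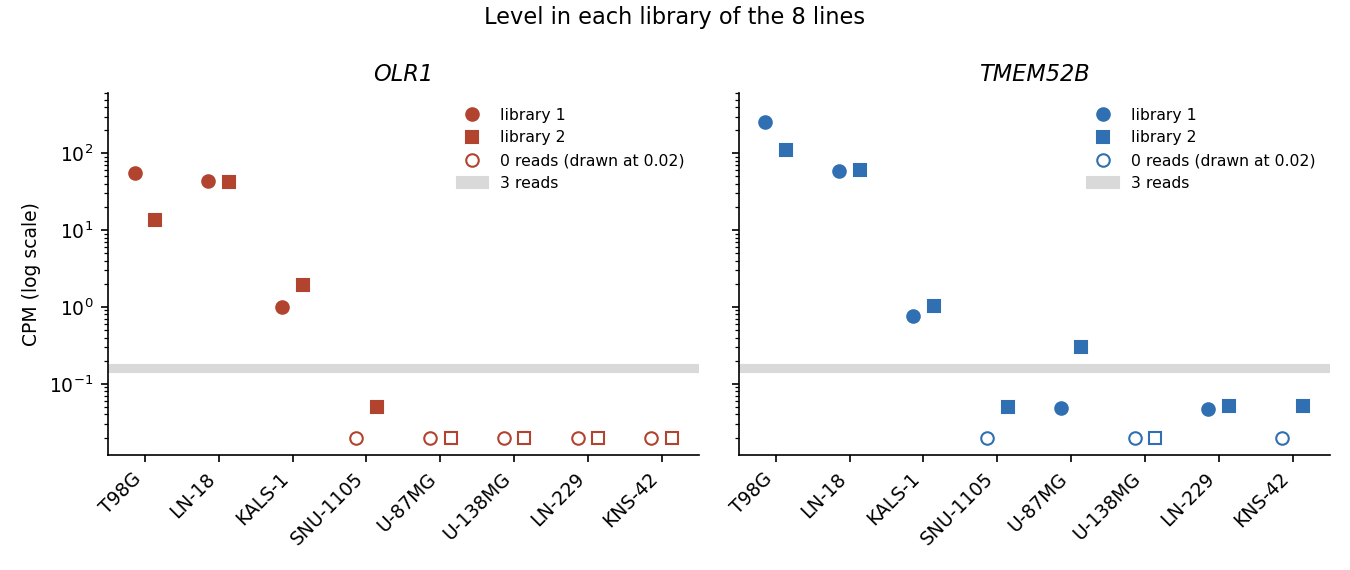
CPM of OLR1 and TMEM52B in each of the 16 libraries on a log axis, with circles for library 1, squares for library 2, open symbols for 0 reads (drawn at 0.02) and a grey band for the range of 3 reads. The T98G and LN-18 libraries of both genes lie at 13.7 CPM or more, those of KALS-1 between 0.759 and 1.94 CPM, and those of the other lines at 0.299 CPM or less.

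Between T98G and LN-18, TMEM52B had a steady direction and OLR1 had none. For OLR1 the T98G mean was 0.803 times the LN-18 mean, a log2 ratio of -0.32. T98G library 1 was 1.28 to 1.29 times the LN-18 libraries, and T98G library 2 was 0.317 to 0.321 times them, so no direction held over libraries. The log2 ratio turned to 0.05 with TMM factors of the listed genes, a scaling that takes most of these genes as unchanged, and stayed negative, at -0.12, with RLE factors. Without T98G library 1 it was -1.65, and without T98G library 2 it was 0.36. For TMEM52B the T98G mean was 3.10 times the LN-18 mean, a log2 ratio of 1.63. That ratio was 0.89 without T98G library 1 and 2.12 without T98G library 2, so its size, though not its direction, depended on the library.

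The balance within the pair differed between T98G and LN-18. Reads of TMEM52B made up 82.4% (exact 95% Clopper-Pearson interval 81.4 to 83.3) and 89.0% (87.6 to 90.3) of the reads of the 2 genes in the T98G libraries. In the LN-18 libraries the share was 57.7% (55.4 to 59.9) and 58.5% (56.3 to 60.6). In the KALS-1 libraries it was 43.3% (25.5 to 62.6) and 34.5% (22.5 to 48.1), from far fewer reads. The intervals of the T98G libraries overlapped neither each other nor those of LN-18, whereas the LN-18 libraries overlapped each other. The interval of KALS-1 library 1 held those of both LN-18 libraries, and that of library 2 lay under them. The other lines had too few reads of either gene for a share.

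**Figure D2:**
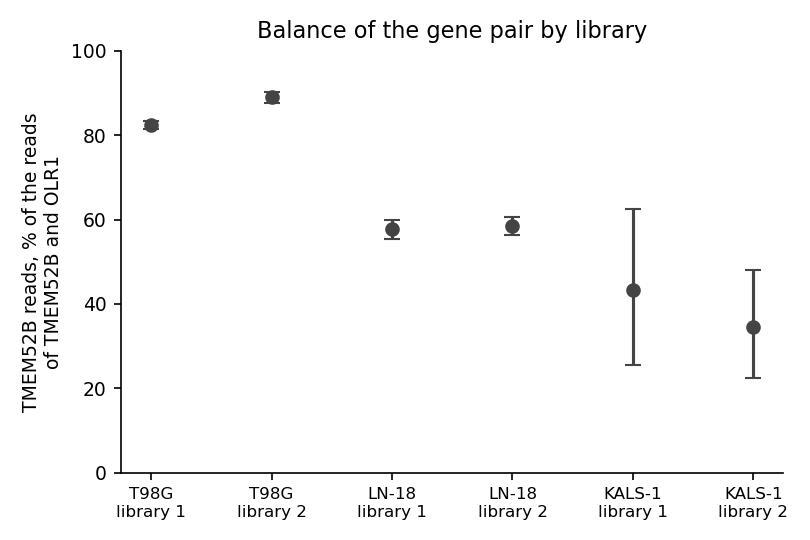
TMEM52B reads as a percentage of the reads of TMEM52B and OLR1 in each library of T98G, LN-18 and KALS-1, with exact 95% intervals for counting error. The T98G libraries lie at 82.4% and 89.0%, the LN-18 libraries at 57.7% and 58.5% and the KALS-1 libraries at 43.3% and 34.5%.

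Levels of different genes can be set side by side only per length, for which the deposited FPKM (fragments per kilobase of gene, scaled to the library total) were used. OLR1 had 18.11 and 4.49 FPKM in the T98G libraries, 14.15 and 13.98 FPKM in the LN-18 libraries and 0.32 and 0.63 FPKM in the KALS-1 libraries. TMEM52B had 73.97 and 31.69 FPKM in the T98G libraries and 16.87 and 17.24 FPKM in the LN-18 libraries. The per-length ratio of TMEM52B to OLR1 was 4.09 and 7.06 in T98G, against 1.19 and 1.23 in LN-18. In KALS-1 it was 0.669 and 0.461, from 13 against 17 reads and 20 against 38 reads. TMEM52B was thus above OLR1 per length in every library of T98G and LN-18. In KALS-1 library 1 the reads were too few to order the genes, given the interval of 25.5% to 62.6% for the share.

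In T98G the agreement between libraries was poorer than in the other 7 lines, and OLR1 was among the genes farthest apart. OLR1 was 4.03 times higher in T98G library 1 than in library 2 (exact 95% interval 3.50 to 4.66) and TMEM52B was 2.33 times higher (2.21 to 2.46). The same ratio in LN-18 was 1.01 for OLR1 (0.918 to 1.12) and 0.979 for TMEM52B (0.901 to 1.06). In KALS-1 it was 0.512 for OLR1 (0.271 to 0.929) and 0.743 for TMEM52B (0.340 to 1.57). In T98G the spread of both genes thus exceeded their counting error, in LN-18 it did not, and in KALS-1 it did for OLR1.

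Against all listed genes with at least 50 reads in the libraries of a line, the T98G spread was as follows. Of 866 such genes, 22.6% were more than 2-fold apart between the T98G libraries, with 7.04% higher in library 1 and 15.6% higher in library 2. The same share was 10.3% in SNU-1105, 0.575% in LN-18 and at most 1.97% in each of the other lines. The median gene was lower in T98G library 1, by a log2 ratio of -0.19, and 38% of genes were higher there. The members were on the less common side. OLR1 was 1 of 14 genes (1.62%) with at least its ratio of library 1 to library 2, and TMEM52B was 1 of 40 (4.62%) with at least its own. Counting differences in either direction, 33 genes (3.81%) were as far apart as OLR1 and 131 (15.1%) as far apart as TMEM52B. Listed genes took 7.71% of the reads of T98G library 1 and 9.19% of those of library 2. The part of these differences in the spread of the pair was not tested.

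**Figure D3:**
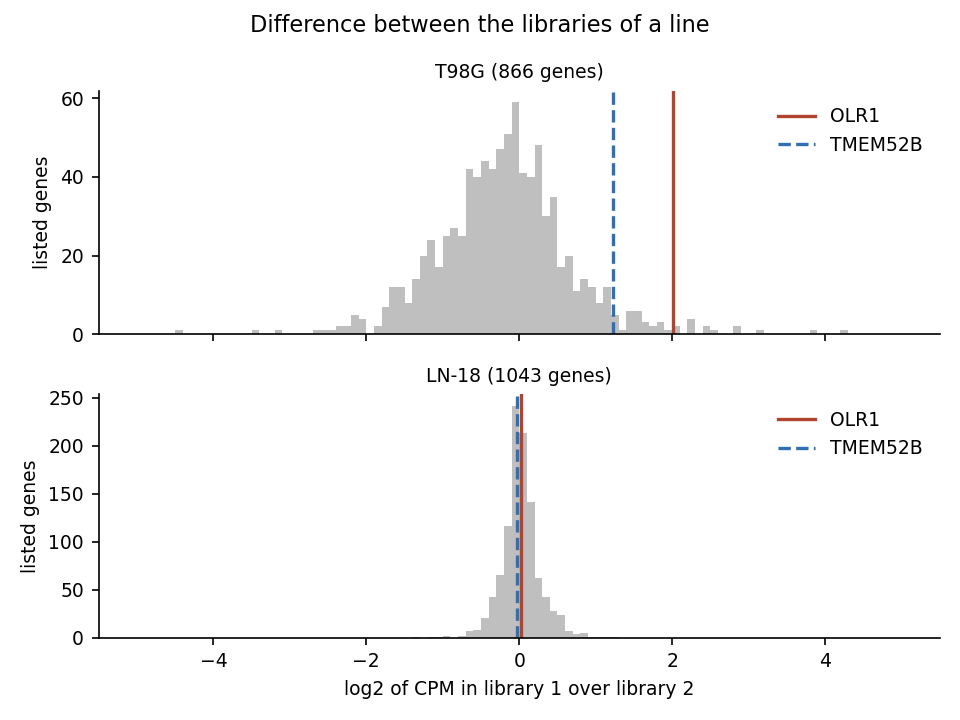
Histograms of the log2 ratio of CPM in library 1 over library 2 for listed genes with at least 50 reads, in T98G (866 genes) and LN-18 (1043 genes), with a solid line for OLR1 and a dashed line for TMEM52B. In T98G both genes lie in the right flank, at 2.01 and 1.22, and in LN-18 both lie near the centre, at 0.02 and -0.03.

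The 13 genes with a larger ratio of T98G library 1 to library 2 than OLR1 were picked out after their values were seen. They were TNFSF18, CLDN1, PDGFB, SAA1, KRT80, TYRP1, AOX1, IL7R, CXCL3, ADAMTS16, DHRS3, PCDH1 and MAP7D2. KRT80, a keratin, had 74.1 CPM in library 1 and 9.99 CPM in library 2. IL7R, an interleukin receptor chain of lymphocytes, had 57.4 and 10.5 CPM. CXCL3, a chemokine, had 7.42 and 1.52 CPM.

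Over the 8 lines the members resembled each other, as their choice implies. Likeness was measured by Pearson's r of log2(CPM + 1) over the 8 line means, among 1180 genes that reached 10 CPM in some line. Values of r near 1 rest on T98G and LN-18 being the high lines, and the line means share the libraries and their totals. The members had r = 0.980 with each other. TMEM52B ranked 5 among the genes most like OLR1, and OLR1 ranked 7 among those most like TMEM52B. Spearman's rho, which also orders the lines near 0, was 0.723 and gave TMEM52B rank 130.

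The 10 genes most like OLR1 were SLC7A2 (r = 0.992), FENDRR (0.989), MMP13 (0.986), TMEM37 (0.982), TMEM52B, HSD17B2 (0.978), GLP2R (0.977), LINC00942 (0.974), ACVRL1 (0.972) and LINC01081 (0.965). Those most like TMEM52B were TMEM37 (0.996), IL2RB (0.995), SLC7A2 (0.993), LINC01081 (0.992), HSD17B2 (0.988), CYP4F11 (0.980), OLR1, LINC00942 (0.976), SLPI (0.967) and TNFRSF11B (0.962). The lists shared 5 genes, and without the members they held 13 genes. SLC7A2, a transporter of cationic amino acids, had 69.3 and 50.8 CPM in the T98G libraries, against 51.0 and 47.9 CPM in the LN-18 libraries and at most 0.759 CPM in the other lines. FENDRR, a long noncoding RNA, had 94.5 and 152 CPM in T98G and 330.04 and 331 CPM in LN-18. TNFRSF11B, which encodes the secreted decoy receptor osteoprotegerin, had 490.3 and 1154 CPM in T98G and 134 and 125 CPM in LN-18.

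Between the T98G libraries these genes did not share a direction. Of the 13 genes, 3 were higher in library 1 than in library 2, as the members were. Among the 866 listed genes with at least 50 reads in the T98G libraries, 38% were, and nothing is read from the difference. They were SLC7A2 at 1.37 times, MMP13 at 1.57 times and LINC01081 at 1.22 times, all under the 2.33 times of TMEM52B. MMP13, a collagenase, had 13.5 and 8.59 CPM in T98G and 24.0 and 21.2 CPM in LN-18. The other 10 were lower in library 1. TMEM37, which is related to calcium channel subunits, had 5.20 and 15.5 CPM in T98G, and HSD17B2, an enzyme that inactivates sex steroids, had 18.6 and 52.7 CPM. TNFRSF11B was 0.425 times, and IL2RB, a chain of interleukin receptors, 0.403 times as high in library 1 as in library 2. LINC00942 was nearly even, at 63.2 and 65.8 CPM.

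**Figure D4:**
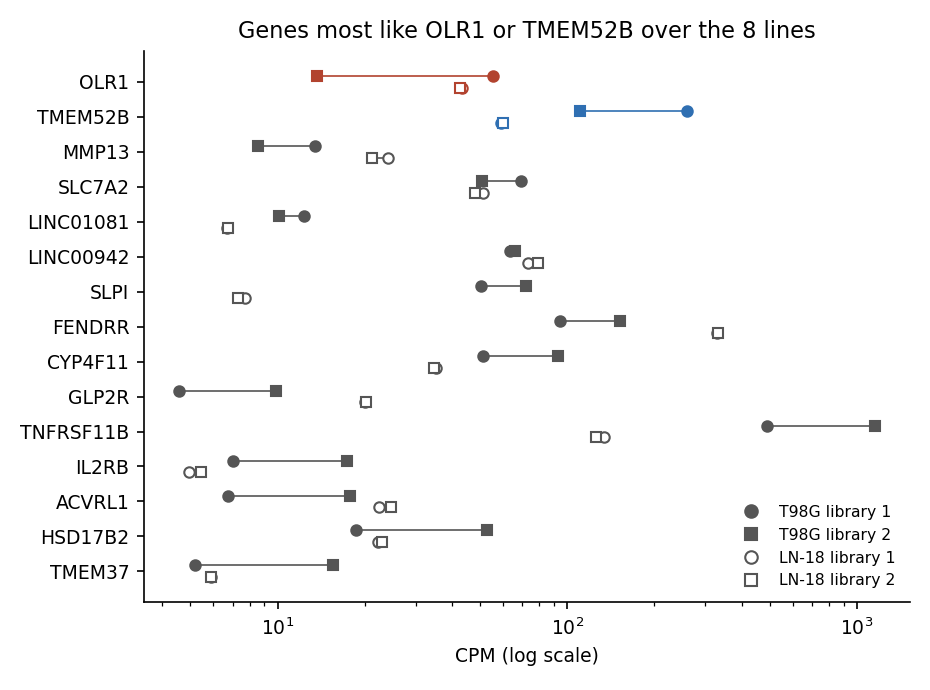
CPM on a log axis in the T98G libraries (filled symbols, joined by a line) and the LN-18 libraries (open symbols) of OLR1, TMEM52B and the 13 genes most like either over the 8 lines, with circles for library 1 and squares for library 2. The circle lies right of the square in T98G for OLR1, TMEM52B, MMP13, SLC7A2 and LINC01081 and left of it for the other 10 genes.

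The genes that divided the lines as the members did were counted as a description, since the members were chosen by this division. In 186 of 2221 genes (8.37%) every T98G and LN-18 library exceeded every library of the other 6 lines. A further condition was set near the values of OLR1 after they were seen, with each T98G and LN-18 library at 10 CPM or more and at least 7 times every other library. It held for 8 genes, the members included, a number that the setting fixes in part. They were TNFRSF11B, FENDRR, LINC00942, TMEM52B, SLC7A2, CYP4F11, HSD17B2 and OLR1. The lowest T98G or LN-18 library of TMEM52B was 57.7 times the highest other library, and that of LINC00942 112 times.

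The stretch around the pair was examined next, to see which neighbours were listed and whether they were high in the same lines. Within 1 Mb of the start of OLR1 GENCODE 29 places 94 genes, of which 47 are protein coding, and 12 had a row, the members included. Of the protein-coding genes there, 21.3% were listed, against 7.92% of the 19951 protein-coding genes annotated. The first share counts the members, which were chosen from the listed genes and set the window. It is thus fixed in part by that choice, and nothing is read from the difference. Each of the 10 neighbours was tested in T98G and in LN-18 against the log-scale mean of the 7 remaining lines, with the edgeR quasi-likelihood test. A call needed a Benjamini-Hochberg adjusted p under 0.05 and a 2-fold difference. In T98G 4 neighbours were called higher, where 20.7% of all tested genes were, and 0 lower, where 30.1% were. In LN-18 5 were called higher, where 31% of all tested genes were, and 0 lower, where 24.9% were.

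GABARAPL1, an autophagy protein of the ATG8 family, was the neighbour with an appreciable level in all lines. It had 172.4 and 109 CPM in the T98G libraries, 61.1 and 57.2 CPM in the LN-18 libraries, 192 and 188 CPM in KALS-1 and 13.5 to 75.3 CPM in the libraries of the other 5 lines. It rose in T98G against the other lines (edgeR log2 fold change 1.55, SE 0.14, adjusted p = 2.37e-08), while in LN-18 the log2 fold change was 0.12 (SE 0.16, adjusted p = 0.584). Its level in T98G was under that of KALS-1, where the pair was near 0.

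The other neighbours called in T98G or LN-18 stood at 3.002 CPM or less in these lines, far under the pair. CD69, an activation marker of lymphocytes, had 0.106 and 0.117 CPM (2 reads each) in T98G and 0.993 and 1.07 CPM (19 and 21 reads) in LN-18. The 12 libraries of the other lines had 1 read of it in all. KLRF1, an activating receptor of natural killer cells, had 0.583 and 0.876 CPM in T98G and 0.157 and 0.102 CPM in LN-18. CLEC9A, a dendritic cell receptor for dead cells, was at 0.0530 and 0.0584 CPM (1 read each) in T98G and 1.36 and 1.42 CPM in LN-18. KLRK1-AS1, antisense to the receptor gene KLRK1, had 0 and 0.0584 CPM in T98G and 2.46 and 3.002 CPM in LN-18, close to the 2.98 and 2.70 CPM in KALS-1. Reads of KLRK1 and of its antisense RNA may not be told apart, since the strand setting of the counting is not given. In edgeR the adjusted p in LN-18 was 3.34e-07 for CD69, 0.00864 for KLRF1, 2.73e-07 for CLEC9A and 8.02e-09 for KLRK1-AS1, and in T98G it was 3.66e-06 for KLRF1 and 0.0159 for CD69. Their fold changes have no fixed size, because at least 1 other line had 0 reads of each.

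The lectin genes next to OLR1 were high in KALS-1 instead. CLEC7A, the beta-glucan receptor dectin, had 0.106 and 0.351 CPM in T98G and 0.209 and 0.0509 CPM in LN-18, against 28.5 and 30.9 CPM in KALS-1. CLEC1A, a lectin of endothelial and dendritic cells, had 0.159 and 0.292 CPM in T98G and 0.0522 and 0.204 CPM in LN-18, against 21.6 and 22.4 CPM in KALS-1. CLEC1A was called higher in T98G by edgeR (adjusted p = 0.0305) although its T98G mean of 0.226 CPM lay under the arithmetic mean of 3.19 CPM over the other 7 lines. CLEC12B, an inhibitory receptor, had 0.784 and 0.153 CPM in LN-18 (edgeR adjusted p = 0.000816) and 1.23 and 1.38 CPM in KALS-1. CLEC2D, a ligand of a natural killer receptor, had 2.12 and 1.40 CPM in T98G and 1.99 and 1.73 CPM in LN-18 and was called in neither. LINC02367, a noncoding RNA, peaked at 10.2 and 12.2 CPM in LN-229. None of the 10 neighbours therefore had the division of lines seen for the pair at 10 CPM or more. At far lower levels CD69 and KLRF1 had it, as did 8.37% of listed genes at any level. Their T98G and LN-18 libraries held 0.102 to 1.07 CPM, from as few as 2 reads, and every other library at most 0.0511 CPM.

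**Figure D5:**
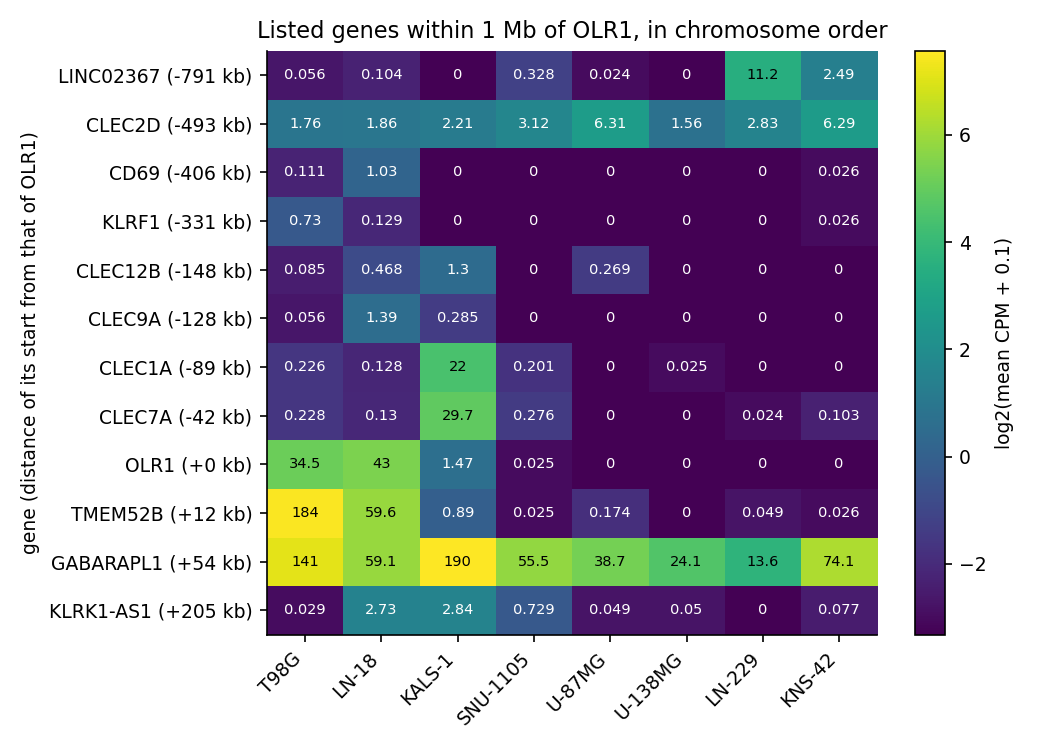
Heat map of log2(mean CPM + 0.1) for the 12 listed genes within 1 Mb of the OLR1 start, in chromosome order down the page and by line across, with the mean CPM of 2 libraries printed in each cell. OLR1 and TMEM52B are bright in T98G and LN-18, CLEC1A and CLEC7A are bright in KALS-1, and GABARAPL1 is bright across the lines.

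These neighbour calls changed with the tool. By limma, fitted to log-scale CPM, 2 neighbours were higher (background 17.7%) and 2 lower (47.6%) in T98G, and 4 higher (27.6%) and 1 lower (38.7%) in LN-18. The T98G calls of CD69 and CLEC1A and the LN-18 call of KLRF1 were lost. In T98G the median log2 fold change of the 10 neighbours was 1.24 by edgeR and -0.18 by limma, against -1.03 and -0.94 over all tested genes. In LN-18 it was 2.01 by edgeR and 0.41 by limma, against -0.44 and -0.58. Leaving out T98G library 1 ended the T98G call of CD69 and added CLEC2D as lower, leaving out T98G library 2 ended those of CD69 and CLEC1A, and leaving out LN-18 library 1 ended the LN-18 calls of CLEC12B and KLRF1. Scaling by TMM or RLE factors of the listed genes added CLEC7A as higher in T98G. Those factors moved the median of all genes up by 0.71 and 0.66 in T98G and by 0.35 and 0.50 in LN-18, and the balance of calls moved too. Scaled to library totals, 40.7% of the calls in T98G were of higher genes, against 58.6% under TMM and 56.9% under RLE. In LN-18 these shares were 55.5%, 63.8% and 67.2%.

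Receptors of the same kinds as LOX-1 were mostly without a row. Of 48 genes of the C-type lectin and natural killer complex list, 8 were listed, 7 of them neighbours described above. In T98G 3 of the 8 were called higher and 0 lower, where 20.7% and 30.1% of all tested genes were. In LN-18 5 were higher and 0 lower, where 31% and 24.9% were. DESeq2 called 0 higher in T98G and 3 in LN-18, and limma 1 and 4. The eighth, LY75, an endocytic lectin of dendritic cells, had 0.0530 and 0 CPM in T98G and 0.731 and 0.763 CPM in LN-18, where it was called higher (edgeR adjusted p = 4.11e-06). Of 32 scavenger and lipoprotein receptors, 2 were listed. LRP1B, a large lipoprotein receptor, had 0 reads in both T98G libraries and 0.157 and 0.0509 CPM in LN-18, against a mean of 18.6 CPM over the other 7 lines for either line. It was called lower in T98G (edgeR adjusted p = 3.67e-08) but not in LN-18, where limma called it lower. STAB1 had 0 reads in T98G and LN-18 and was too low to test.

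Genes linked to LOX-1 signalling and NF-kB gave mixed calls. Of the 35 genes in that list 11 were listed and tested. In T98G 2 were called higher and 3 lower, where 20.7% and 30.1% of all tested genes were. In LN-18 2 were higher and 4 lower, where 31% and 24.9% were. The median log2 fold change was -1.17 in T98G and -1.64 in LN-18, against -1.03 and -0.44 over all tested genes, and limma called 6 lower in T98G (background 47.6%) and 7 in LN-18 (38.7%). TNFAIP2, a gene induced by tumour necrosis factor, was called higher in both lines. It had 50.4 and 34.7 CPM in T98G (edgeR log2 fold change 1.34, SE 0.17, adjusted p = 1.05e-06) and 89.1 and 98.002 CPM in LN-18 (2.64, SE 0.15, adjusted p = 2.04e-11). Its T98G mean of 42.5 CPM was near the 42.3 CPM of SNU-1105 and under the 74.6 CPM of KALS-1, with KNS-42 at 1.10 CPM. Both LN-18 libraries exceeded every library of the other lines.

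TNFAIP3, a brake on NF-kB signalling, fell in both lines, to 6.41 and 6.31 CPM in T98G (edgeR log2 fold change -1.64, adjusted p = 9.32e-07) and 7.21 and 6.06 CPM in LN-18 (-1.57, adjusted p = 1.16e-06). With TMM factors its T98G value was -0.95 and passed the fold limit no longer. LN-229 was also low in TNFAIP3, at 9.33 and 6.55 CPM, and its library 2 lay between the LN-18 libraries. CXCL3 was called higher in T98G (edgeR log2 fold change 1.65, adjusted p = 0.00106) and lower in LN-18 (-1.99, adjusted p = 0.00751), at 0.470 and 0.509 CPM. On arithmetic means T98G, at 4.47 CPM, lay under the 18.6 CPM of the other 7 lines, of which U-87MG had 115 CPM. Without T98G library 1 the T98G value was 0.08, and the LN-18 call was lost without either LN-18 library. AGTR1, the angiotensin receptor, had 0 reads in both T98G libraries and was called lower (edgeR adjusted p = 0.00095), a call lost without KNS-42 library 1, KALS-1 library 1 or LN-18 library 2. IL1A, a cytokine, was called lower in LN-18 (edgeR log2 fold change -2.86, adjusted p = 0.00062), at 0.0522 and 0.254 CPM (1 and 5 reads). T98G library 2, at 0.175 CPM, lay between these values, while U-87MG averaged 14.1 CPM. CYBB, an oxidase subunit of phagocytes, was called higher in LN-18 at 0.366 and 0.102 CPM, a call lost by limma and without LN-18 library 1. The LN-18 mean of CYBB, 0.234 CPM, lay under the arithmetic mean of 0.324 CPM over the other 7 lines. Members that edgeR called in neither line included the chemokine genes CCL2 and CXCL1. CXCL1 had 0 reads in all 4 libraries, and both DESeq2 and limma called it lower in T98G and in LN-18. CCL2 had 10.2 and 31.8 CPM in T98G and 10.8 and 11.96 CPM in LN-18. CCL2 was called higher in T98G with TMM or RLE factors and without T98G library 1, where its log2 fold change was 1.08. Without T98G library 2 the value was -0.56, and its T98G mean of 21.0 CPM lay under the arithmetic mean of 96.6 CPM over the other 7 lines.

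Of 25 transcription factors of the AP-1, NF-kB, octamer and lipid-sensing receptor families, 3 were listed and 1 was called. POU2F2, an octamer factor of lymphocytes, was called lower in T98G, at 0.477 and 0.292 CPM (edgeR log2 fold change -3.10, SE 0.37, adjusted p = 7.22e-07). In LN-18 it had 2.40 and 2.29 CPM and was not called (edgeR adjusted p = 0.702). T98G was not alone in its low level. LN-229, at 0.428 and 0.711 CPM, and KNS-42, at 0.720 and 0.204 CPM, overlapped it, while U-87MG averaged 249 CPM.

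Cell types known for either gene were examined through listed markers of myeloid, endothelial and kidney tubule cells. In each T98G and LN-18 library the markers of a list summed to 3.10 CPM or less. No list held smooth muscle markers. Of 12 myeloid markers 4 were listed, and their summed level was 1.54 to 2.69 CPM in T98G and 2.40 to 2.49 CPM in LN-18, against 0.720 to 26.6 CPM in the libraries of the other lines. The leukocyte marker PTPRC had at most 1 read in each T98G and LN-18 library. ITGAM, an integrin of myeloid cells, rose in T98G to 1.06 and 2.16 CPM (edgeR adjusted p = 4.01e-07), with the higher value in the library where OLR1 was lower. CSF1R and CD14 were called lower in T98G, CD14 not with TMM or RLE factors or without T98G library 2, and none of the 4 was called in LN-18. Of 9 endothelial markers KDR and EMCN were listed, at a summed 0 to 0.0584 CPM in T98G and 0.366 to 0.611 CPM in LN-18, against 0 to 99.2 CPM in the other libraries. KDR was called lower in T98G (edgeR adjusted p = 3.65e-05), a call lost without U-138MG library 2, and EMCN was at 0 reads in all T98G and LN-18 libraries. The glial marker SOX2 was called lower in T98G (edgeR adjusted p = 5.91e-08) and in LN-18 (edgeR adjusted p = 5.62e-05). The T98G call was lost without LN-18 library 2 and the LN-18 call without T98G library 1, with log2 fold changes of -6.69 and -5.01, against -7.27 and -5.35 over all libraries. Of 8 kidney tubule markers 2 were listed. PAX2 rose in T98G, to 1.11 and 2.40 CPM (edgeR adjusted p = 8.86e-08), and PAX8 fell there, to 0.159 and 0.584 CPM (edgeR adjusted p = 1.1e-08). Neither was called in LN-18. The markers without a row were not analysed here.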

How the data were processed

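Each deposited table holds raw counts of reads, FPKM and gene length as made by the authors, for 2221 genes (8 lines) or 5383 genes (3 lines). The submitters' processing notes name HISAT2 2.2.1, StringTie 1.3.3, HTSeq 0.6.0, FastQC 0.10.1 and cutadapt 1.9.1, with build GRCh38. The sources used here do not give the role of each tool, the annotation or the choice of genes. Library totals were worked out from the deposited counts, length and FPKM, at genes of 20 FPKM and 200 reads or more, and gave back the FPKM within 0.01 for at least 99.9% of genes. CPM are deposited counts scaled to these totals.

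Symbols matched for 2220 genes of the 8-line table. OLR1 and TMEM52B were read from every library and got no test. Other genes were fitted with edgeR 4.0.16 (R 4.3.3) on the 16 libraries, 1 coefficient per line, with library totals and edgeR's filter on low counts, which left 2095 genes. Adjusted p-values cover these genes. Alternatives were TMM and RLE factors, no filter, DESeq2 1.42.0, limma 3.58.1 with a prior count of 2, a replicate block and leaving out each library. The edgeR step was tested on simulated data with the same spread in every gene and line. The wider spread of T98G and lines silent for a gene were thus not covered. Intervals of a ratio of 2 libraries are conditional binomial.

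The members, gene lists and alternatives were chosen with earlier results of these data known. Named were the members, the 10 genes most like each at 10 CPM or more in some line, listed genes within 1 Mb, and up to 5 called genes per list, line and direction. Coordinates are from GENCODE 29. The values of 1 called gene of a list are not reported here.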

Additional observations from a re-analysis of the deposited data

How the results depend on the processing

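The direction of TMEM52B between T98G and LN-18 held under every alternative run, and that of OLR1 changed with TMM, not with RLE factors, and with the T98G library left out, as given above. The log2 ratio of the T98G libraries for OLR1, 2.01, was 2.17 with TMM and 2.15 with RLE factors, and for TMEM52B, 1.22, it was 1.38 and 1.37. On deposited FPKM the log2 ratio of TMEM52B to OLR1 in LN-18 was 0.28, against 0.47 on reads, because FPKM divide by the longer TMEM52B. Of the 10 genes most like OLR1, 2 remained with Spearman's rho, 6 over the 16 libraries, 7 with a pseudocount of 0.1 and 4 with no minimum level. For TMEM52B 0, 9, 7 and 4 remained. The 433 higher genes in T98G ranged between 402 and 446 with a library left out, and the 630 lower genes between 544 and 629. TMM gave 406 and limma 997 lower genes there. In LN-18 650 genes were higher (615 to 670 with a library left out) and 522 lower (457 to 521), with 810 lower by limma. The cause was not tested. DESeq2 called 1 neighbour higher in T98G and 3 in LN-18. Of the 70 tests of named genes, no called value changed its direction under any alternative, 20 crossed the threshold with limma, 11 with DESeq2 and 7 without T98G library 1.

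Libraries with the same number did not deviate together, with correlations of -0.072 to 0.07 over 28 pairs of lines. With the number as a replicate block, 432 genes were higher and 627 lower in T98G, and 645 higher and 518 lower in LN-18. Among the 70 tests it changed 1 call, with IL1A gained as lower in T98G. The planned comparison among A-172, AM-38 and SNU-466 was not run, as it was conditional on a row for a member.

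With 2 libraries per line the spread of T98G rests on 1 difference. The tests shared a spread per gene over the lines, so the wider spread of T98G entered its p-values and SE only in part. Neighbours and markers at a few reads per library are limited by depth, and 0 reads allow up to 0.175 CPM. Where other lines have 0 reads the log-scale mean has no fixed value, so edgeR can miss lower genes and call genes higher at a few reads. CLEC1A in T98G and CYBB in LN-18 were called higher by edgeR, not by limma, though under the arithmetic mean of the remaining lines. Listed genes were chosen by rules not known here, which limits every share of genes.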

Other observations

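In the table of A-172, AM-38 and SNU-466, 8 other genes within 1 Mb of the OLR1 start had a row. CLEC2B, a lectin that activates natural killer cells, stood at 8.88 ± 1.47 CPM in A-172, 0.149 ± 0.144 CPM in AM-38 and 0.0295 ± 0.0417 CPM in SNU-466 (SD, n = 2 each). EIF2S3B, a retrocopy of a translation factor whose reads can be shared with its parent gene, was at 12.9 ± 0.437 CPM in AM-38, 7.02 ± 0.587 CPM in A-172 and 2.84 ± 0.595 CPM in SNU-466. KLRA1P, a lectin pseudogene, was at 3.66 ± 0.495 CPM in SNU-466, 1.63 ± 0.244 CPM in AM-38 and 1.00 ± 0.262 CPM in A-172. STYK1, a kinase-like membrane protein, was at 2.73 ± 0.398 CPM in SNU-466 and at 0.972 and 0.277 CPM in AM-38 and A-172. CLEC2D, which was also listed for the 8 lines, was between 1.18 and 3.597 CPM in these 6 libraries. No test was run on these values.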
